A study of Mus musculus with 24 samples.

Results

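Inhibitory checkpoint receptors are cell-surface proteins that dampen T cell activation, and 9 of the 24421 genes counted encode the receptors described here. They were chosen by symbol: Ctla4, Lag3, Tigit, Pdcd1, Havcr2, Cd160, Cd244, Btla and Cd5. Their RNA was measured by sequencing of CD45+CD3+CD8+ T cells that had been sorted from 24 samples of mouse pancreas or blood, at ages between 4 and 30 weeks. KC pancreas gave 12 libraries (3 of 4 weeks, 2 of 9 weeks, 3 of 13 weeks, 2 of 20 weeks and 2 of 30 weeks), and KC blood gave 9 libraries (2, 1, 3, 1 and 2 at the same ages). WT B6 mice gave 2 pancreas libraries (9 and 30 weeks) and 1 blood library (30 weeks). KC mice serve to model early pancreatic cancer, since precursor lesions arise in their pancreas as they grow older. The labels give neither the alleles, nor any promoter that drives them, nor how many mice stand behind a library, so p-values measure the spread between these libraries, which may in part be technical. The question the design sets is how T cells of the pancreas differ from T cells of the blood, and how both vary while disease progresses.

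A T cell that meets its antigen raises several of these receptors, and T cells under lasting stimulation, as in many tumours, are known to carry a number of them at once. CTLA-4 competes with the costimulatory receptor CD28 for its ligands, TIGIT does the same with CD226, and PD-1 (gene Pdcd1), BTLA and CD5 recruit phosphatases or other inhibitors of signalling through motifs in their cytoplasmic tails. LAG-3 binds MHC class II, TIM-3 (gene Havcr2) has several ligands, BTLA and CD160 share the ligand HVEM (gene Tnfrsf14), and 2B4 (gene Cd244), which binds CD48, can activate or inhibit. Naive T cells already carry CD5 and BTLA, while PD-1, TIM-3 and LAG-3 are usually low without stimulation.

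On the GRCm38 genome, the build named mm10 in the labels, Ctla4 (chr1:60887000-60915832, plus strand), Pdcd1 (chr1:94038305-94052553, minus strand) and Cd244 (chr1:171559193-171609746, plus strand) lie on 1 chromosome, and Tigit (chr16:43648867-43664146, minus strand) and Btla (chr16:45224315-45257670, plus strand) on another. Cd160 lies at chr3:96798763-96829351 (minus strand), Lag3 at chr6:124904361-124911705 (minus strand), Havcr2 at chr11:46454935-46481255 (plus strand) and Cd5 at chr19:10717116-10739002 (minus strand). All are protein-coding genes in GENCODE M21, from which the positions were taken. Over whole gene spans of that annotation, introns included, Cd244 shares 18787 bases with Ly9 on the opposite strand and Cd160 shares 68 bases with Pdzk1. The RefSeq span of Cd244 is shorter and ends at base 171585316. Overlap between exons was not examined. Strand use in counting is not given in the sources used here, so reads from the shared bases cannot be told apart.

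The promoter windows of 3 members are shown because Ctla4 and Cd244 had the largest fitted differences between tissues, in opposite directions, and Havcr2 was the receptor with the fewest reads. Each window runs from 250 bases before to 50 bases after a RefSeq gene start (GRCm38.p6), is written 5′ to 3′ on the strand of the gene, and has in capitals the matches to the AP-1 motif TGANTCA and to the NFAT core GGAAA, both searched on both strands. AP-1 and NFAT are transcription factors that T cell activation switches on. The windows are chr1:60908775-60909074 (plus strand) for Ctla4, chr1:171558943-171559242 (plus strand) for Cd244 and chr11:46454681-46454980 (plus strand) for Havcr2.
Ctla4: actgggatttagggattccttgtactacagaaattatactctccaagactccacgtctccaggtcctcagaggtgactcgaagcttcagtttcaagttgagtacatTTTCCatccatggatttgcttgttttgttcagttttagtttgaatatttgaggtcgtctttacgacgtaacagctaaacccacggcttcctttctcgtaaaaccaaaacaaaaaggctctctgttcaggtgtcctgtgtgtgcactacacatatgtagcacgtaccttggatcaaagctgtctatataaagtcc
Cd244: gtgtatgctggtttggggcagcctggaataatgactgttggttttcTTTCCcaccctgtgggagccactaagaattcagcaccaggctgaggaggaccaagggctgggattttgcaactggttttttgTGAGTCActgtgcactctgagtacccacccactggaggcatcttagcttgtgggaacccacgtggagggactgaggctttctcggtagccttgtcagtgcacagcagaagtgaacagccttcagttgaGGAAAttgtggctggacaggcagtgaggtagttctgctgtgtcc
Havcr2: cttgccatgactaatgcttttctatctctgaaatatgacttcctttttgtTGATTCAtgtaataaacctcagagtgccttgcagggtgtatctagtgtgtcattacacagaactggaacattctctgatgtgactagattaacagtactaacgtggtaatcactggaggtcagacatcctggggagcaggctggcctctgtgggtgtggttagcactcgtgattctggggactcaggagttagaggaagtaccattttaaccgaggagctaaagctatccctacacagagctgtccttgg
RefSeq windows were at hand for 8 of the 9 members (9 windows, 2 of them for Cd160). An AP-1 match stood in 2 of the 9 windows, those of Cd244 (at base -122 from the gene start) and Havcr2 (at base -200), and in 7.81% of all 32851 windows of this length. The NFAT core stood in 6 of the 9 windows and in 61.3% of all windows. These matches are a description of the letters and say nothing of binding.

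A library is called by its title in the labels, where P8 marks pancreas and B8 blood. The libraries held 6352070 to 16716169 counts in genes (median 9602260) and 10066 to 12949 genes with a count. Levels are given in CPM, the count of a gene scaled to a common total of gene counts per library, and a count of 0 allows a level of up to 3 counts, which was 0.179 to 0.472 CPM per library. Intervals and this floor cover counting error only, since reads without molecular identifiers are not independent molecules. Cd3e (3791 to 15654 CPM), Cd8a (587 to 3003 CPM) and Cd8b1 (282 to 1776 CPM) were high in every library, and Cd4 ran from 13.3 to 39.4 CPM. Libraries also shared traces of each other: 95 genes found at a high level in 1 library, with no more than 5% of it in any other, split the libraries into 2 sets of 12. The sets were made by clustering the libraries on the detection of these same traces, with the number of sets fixed at 2. The traces were detected in 92.4% of the libraries of the source's own set and in 47.7% of those of the other set, at a median of 0.205% and 0% of the source's level. A higher share within a set follows from how the sets were made and is no test of them. Where a member is at a like percentage of the highest library of its set, that value is given beside it.

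The receptors fell into 3 tiers of detection. Cd5, Btla and Ctla4 had at least 28 counts in each of the 24 libraries, Tigit and Cd160 had at least 1 count in each, and Lag3, Pdcd1, Cd244 and Havcr2 were at 0 in some. Lag3 had counts in 7 of 12 KC pancreas, 6 of 9 KC blood, 2 of 2 WT pancreas and 1 of 1 WT blood libraries. Pdcd1 had counts in 11 of 12 KC pancreas, 6 of 9 KC blood, 2 of 2 WT pancreas and 1 of 1 WT blood libraries. Havcr2 had counts in 4 of 12 KC pancreas, 3 of 9 KC blood, 2 of 2 WT pancreas and 0 of 1 WT blood libraries. Cd244 had counts in 4 of 12 KC pancreas, 7 of 9 KC blood, 1 of 2 WT pancreas and 1 of 1 WT blood libraries. A library detected between 6 and 9 of the receptors, and a single library, the WT pancreas of 9 weeks, had at least 1 count of each, with 5 of the 9 above 3 counts.

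**Figure D1:**
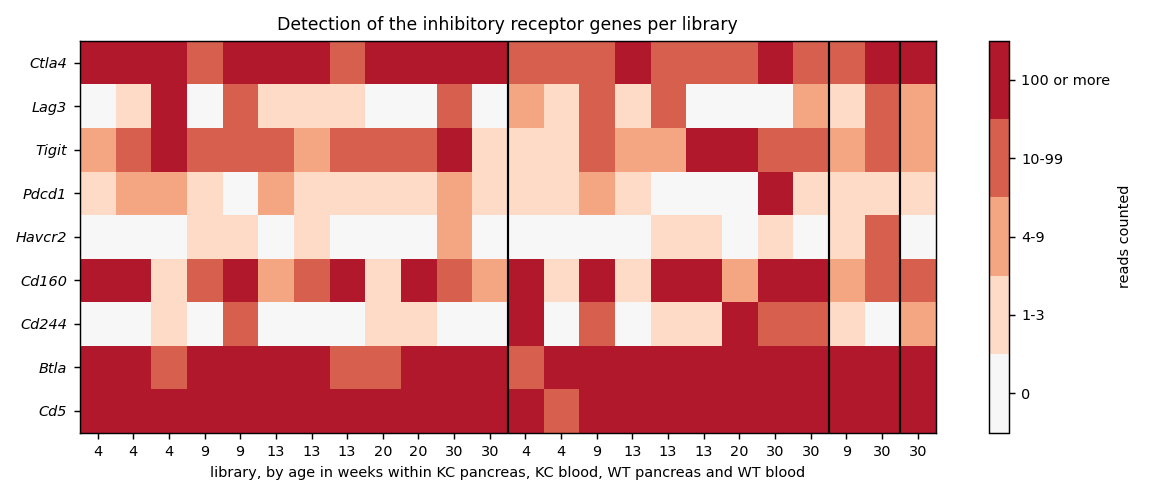
Reads counted for each receptor gene (rows) in each library (columns), in classes from 0 to 100 or more. Columns run by age in weeks within KC pancreas, KC blood, WT pancreas and WT blood, which the vertical lines divide. The rows of Ctla4, Btla and Cd5 are filled in all 24 libraries, while Havcr2 has counts in 9 libraries and 10 or more in 1.

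Per kilobase of exon, which allows genes to be set side by side, the median level over 24 libraries was 23.7 RPKM for Cd5, 16.6 RPKM for Btla, 6.28 RPKM for Ctla4, 2.44 RPKM for Cd160 and 1.29 RPKM for Tigit. Lag3 (0.0970 RPKM), Pdcd1 (0.0878 RPKM), Cd244 (0.0191 RPKM) and Havcr2 (0 RPKM) followed. Neighbours in this order changed places between libraries: Cd5 stood above Btla in 16 of 24 libraries, Btla above Ctla4 in 14, Ctla4 above Cd160 in 14 and Cd160 above Tigit in 12. The widest step was from Tigit to Lag3, with Tigit higher in 21 of 24 libraries. In KC pancreas the median of Ctla4 (25.8 RPKM) was above those of Cd5 (23.0 RPKM) and Btla (14.8 RPKM), and in KC blood it was 3.29 RPKM, below Cd5 (19.5 RPKM) and Btla (17.8 RPKM).

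T cells of KC pancreas and KC blood were compared over 21 libraries with age as a factor, and none of the 7 receptor genes with enough counts to be tested was called between the tissues by edgeR's quasi-likelihood test at a Benjamini-Hochberg adjusted p under 0.05. At an unadjusted p under 0.05 there was 1, Cd244, beside 1089 of all 11059 genes tested. DESeq2, which called 489 genes in all, called Cd244, and limma, which called 14, did not. DESeq2 gave no adjusted p for Lag3 and Tigit here, in the KC pancreas trend, in the difference of trends and in KC against WT pancreas, for Ctla4 in the KC blood trend, or for Havcr2 against WT, so its counts leave these out. Of all 11059 genes tested, edgeR called 10, which is 0.0904%. The fitted log2 difference of pancreas minus blood was above 0 for 6 of the 7 receptors, beside 45.4% of all genes tested. Its median was 0.85 over the receptors and -0.12 over all genes. The test had little power for small differences in simulated counts, where all genes had 1 common spread. There it called 0% of genes changed by a log2 value of 1, 1.49% of those changed by 2 and 28.8% of those changed by 4. In sorted cells measured in bulk, fewer cells with a transcript and less of it per cell cannot be told apart.

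Cd244, the receptor 2B4, had the largest fitted difference, and its level was lower in KC pancreas. In KC pancreas it had 44 counts in all, of which 40 lay in the 9-week library Sample_95P8 (3.66 CPM, 95% exact interval 2.61 to 4.98), and the other 11 libraries shared 4. In KC blood it had 719 counts: the libraries of 4 weeks held 12.2 and 0 CPM, that of 9 weeks 3.14 CPM, those of 13 weeks 0, 0.0609 and 0.116 CPM, that of 20 weeks 52.5 CPM and those of 30 weeks 8.74 and 5.43 CPM. The groups overlapped, since 4 blood libraries lay at 0 or at 1 count, as most of the pancreas libraries did, and Sample_95P8 lay above 5 of the 9 blood libraries. The fitted log2 difference of pancreas minus blood was -6.65 ± 1.62 (SE, 95% interval -9.91 to -3.40), with a Benjamini-Hochberg adjusted p of 0.0852 by edgeR. The adjusted p was 0.0187 without Sample_95P8, 0.0379 with no filter on low counts and 0.00118 by DESeq2, and 0.190 by limma on log2 CPM (difference -3.31). Leaving out any other library gave adjusted p-values up to 0.317, the largest without Sample_42B8, where the difference was -5.27.

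Some of the lowest Cd244 counts were at percentages near those of the shared traces. They were single counts, the smallest value above 0 that a library can give, so this closeness cannot tell where they came from. Among the libraries of the same set as Sample_205B8, where Cd244 was highest, the single counts of Sample_204P8, Sample_205P8, Sample_132B8 and Sample_133B8 came to 0.259%, 0.196%, 0.116% and 0.221% of its level. Cd244 is also a receptor of NK cells. The summed level of 10 NK cell markers ran from 1.50 to 184 CPM in KC pancreas, where 7 of the 10 were detected, and from 2.03 to 377 CPM in KC blood, where 8 were. The blood libraries with the most Cd244 held 58.9 CPM (Sample_205B8) and 377 CPM (Sample_42B8) of these markers, and Sample_43B8, with no Cd244 count, held 129 CPM. In Sample_42B8 Klrb1c, Fcer1g and Ncr1 held 0.0909 CPM each and Tyrobp 0.364 CPM. The rest of its sum came from other markers of the list. In Sample_205B8 Fcer1g held 34.3 CPM, Tyrobp 1.19 CPM and Klrb1c 0.356 CPM. Klra8 and Klra4 were at 0 in every KC library and Ncr1 did not pass 0.11 CPM in any. The part of the remaining markers in the Cd244 difference was not tested.

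Ctla4, whose protein competes with CD28, had the highest medians in pancreas relative to blood among the receptors that were read in all libraries. It ran from 4.47 to 254.8 CPM in KC pancreas (median 49.8, n = 12) and from 2.38 to 432 CPM in KC blood (median 6.36, n = 9). Of the blood libraries 8 lay between 2.38 and 13.8 CPM, and the 13-week library Sample_131B8 alone held 432 CPM (95% exact interval 419 to 445), which is 89.5% of all Ctla4 counts of KC blood. Without it the blood mean was 6.89 ± 3.70 CPM (SD, n = 8), against 54.1 ± 142 CPM with it (SD, n = 9), beside 75.0 ± 79.6 CPM in KC pancreas (SD, n = 12). In the 9 pairs of KC libraries whose titles share a number, Ctla4 was higher in pancreas in 8 and in blood in 1. The fitted log2 difference was 1.86 ± 1.21 (SE, 95% interval -0.57 to 4.28, edgeR adjusted p = 0.657). It was 3.49 ± 0.85 without Sample_131B8 (SE, adjusted p = 0.0623), 2.39 by limma on log2 CPM (adjusted p = 0.424) and -0.33 with no term for age (adjusted p = 0.911).

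Ctla4 is also abundant in regulatory T cells, whose factor Foxp3 was measured beside it. Foxp3 was 5.09 CPM in Sample_131B8, within the range of the other KC blood libraries (1.30 to 13.4 CPM). In KC pancreas the libraries with 254.8, 164 and 154 CPM of Ctla4 held 11.3, 3.15 and 30.6 CPM of Foxp3. Ordered by Foxp3 instead, the highest KC pancreas libraries were Sample_302P8, Sample_204P8 and Sample_42P8 (30.6, 26.3 and 11.3 CPM), with 154, 64.0 and 254.8 CPM of Ctla4. The WT pancreas libraries of 9 and 30 weeks held 4.94 and 54.3 CPM of Foxp3 and 4.56 and 34.2 CPM of Ctla4. The summed level of 8 CD4 and regulatory T cell markers ran from 36.6 to 178 CPM in KC pancreas and from 40.0 to 128 CPM in KC blood, with all 8 detected in both. In KC pancreas this sum was highest in Sample_42P8, the library with the most Ctla4. It was 97.6 CPM in Sample_302P8 (154 CPM of Ctla4) and 61.2 CPM in Sample_303P8 (164 CPM of Ctla4), beside a KC pancreas median of 61.6 CPM. In Sample_131B8 it was 47.8 CPM, beside a KC blood median of 56.5 CPM. Beyond these values, their part in the Ctla4 level was not tested.

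**Figure D2:**
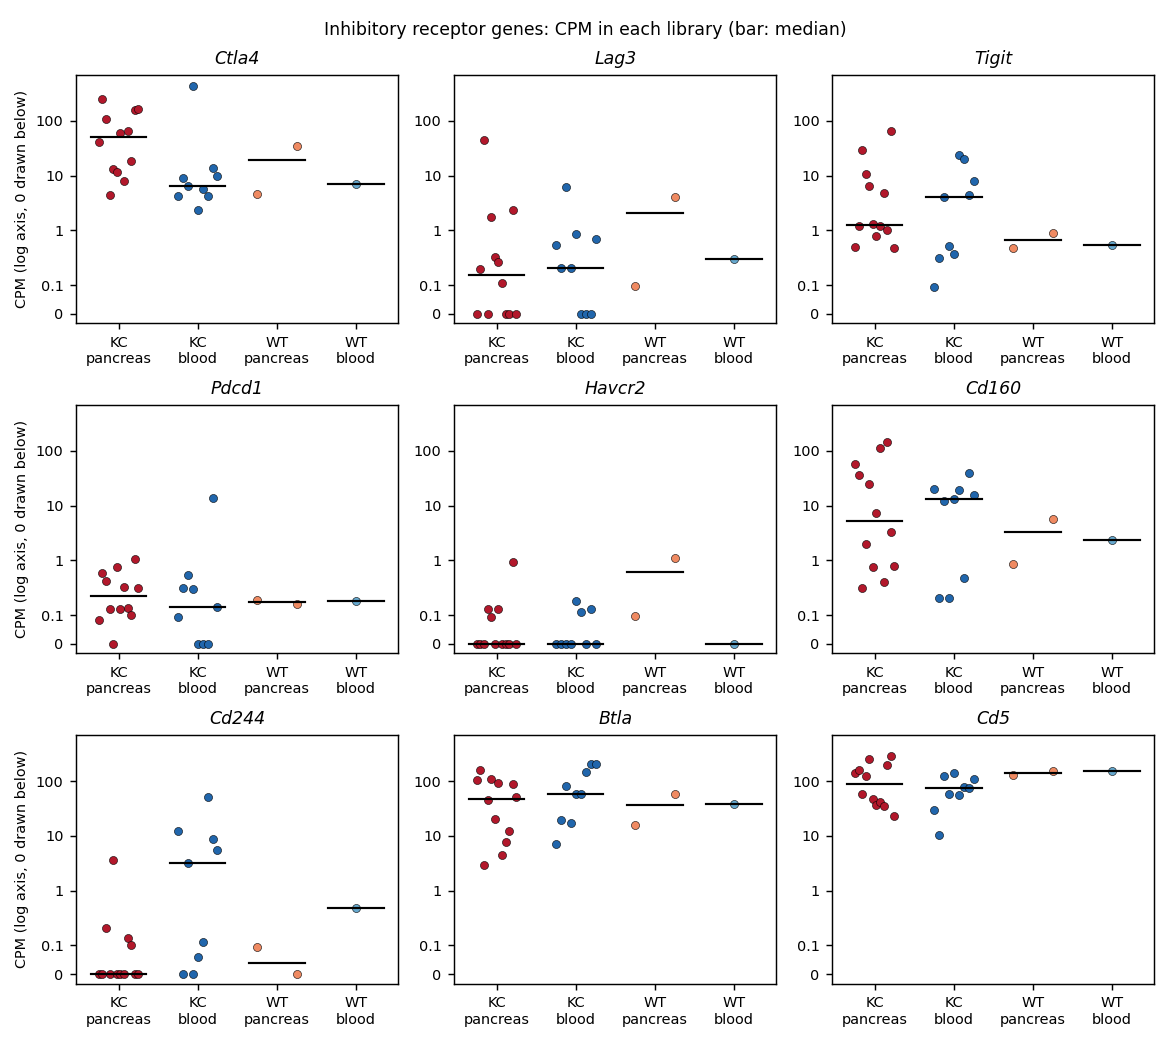
CPM of each receptor gene in each library (points) in KC pancreas (n = 12), KC blood (n = 9), WT pancreas (n = 2) and WT blood (n = 1), on a log axis with libraries at 0 drawn at its foot. Horizontal bars are medians. Ctla4 has a median of 49.8 CPM in KC pancreas and 6.36 CPM in KC blood with 1 blood library at 432 CPM, while Cd244 has medians of 0 and 3.14 CPM.

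Tigit and Lag3 were each carried by a few libraries, and neither differed between tissues beyond their spread. Tigit, which engages the poliovirus receptor, ran from 0.472 to 64.2 CPM in KC pancreas (median 1.26) and from 0.0909 to 23.9 CPM in KC blood (median 4.03). The 30-week pancreas library Sample_302P8 alone held 50.9% of the KC pancreas counts, and Sample_43P8 of 4 weeks followed with 29.4 CPM. The fitted log2 difference was 0.62 ± 1.54 (SE, edgeR adjusted p = 0.937) and turned to -0.80 without Sample_302P8 and to -0.012 without Sample_43P8. Lag3 had 426 of its 473 KC pancreas counts in Sample_43P8 (44.9 CPM, 95% exact interval 40.7 to 49.3), where the median of the group was 0.152 CPM, and in KC blood it ran from 0 to 6.18 CPM (median 0.206). Its fitted difference was 1.06 ± 1.53 (SE, edgeR adjusted p = 0.884), and it was -0.52 without Sample_43P8.

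Sample_43P8, of KC pancreas, was high in both Lag3 and Tigit, and also held 108 CPM of Ctla4. Its summed markers of macrophages and dendritic cells were 306 CPM and those of acinar cells 4113 CPM, beside medians of 73.0 and 70.9 CPM in KC pancreas, and their part in its receptor levels was not tested. Low Lag3 counts followed the sets of shared traces. In the set of Sample_43P8, 10 of the 11 other libraries had Lag3 counts, 8 of them 1 to 5 counts, at a median of 0.459% of its level. In the other set, where the highest was Sample_95B8, 7 of the 11 others had none. The lowest Tigit values were 0.309% of Sample_43P8 in its set, the single count of Sample_42B8, and 0.569% of Sample_302P8 in the other.

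PD-1 and TIM-3, the receptors most used to mark exhausted T cells, were near the limit of detection in both tissues. Pdcd1 had 36 counts in 12 KC pancreas libraries, with 0 to 9 counts per library (median 0.226 CPM, highest 1.06 CPM). In KC blood it had 118 counts, 104 of them in the 30-week library Sample_302B8 (13.8 CPM, 95% exact interval 11.3 to 16.7), and the other 8 libraries held 0 to 6 counts (median of the group 0.139 CPM). Over 3 counts were read in 4 of 12 KC pancreas libraries (Sample_131P8, Sample_302P8, Sample_42P8 and Sample_43P8) and in 2 of 9 KC blood libraries (Sample_95B8 and Sample_302B8). Havcr2 had 11 counts in KC pancreas, 8 of them in the 30-week library Sample_302P8 (0.943 CPM, interval 0.407 to 1.86), and 5 counts in KC blood with no library above 3. The highest Havcr2 value of all was that of the 30-week WT pancreas library, with 14 counts (1.12 CPM, interval 0.611 to 1.87). Neither gene passed the filter on low counts between the tissues, and with no filter their fitted log2 differences were 0.016 ± 0.66 (SE, edgeR adjusted p = 0.997) for Pdcd1 and 1.32 ± 1.53 (SE, adjusted p = 0.797) for Havcr2.

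Myeloid cells also carry TIM-3, and Sample_302P8 had the highest summed level of macrophage and dendritic cell markers in KC pancreas, 333 CPM, within a range of 16.8 to 333 CPM. In KC blood that sum ran from 12.4 to 437 CPM, and Sample_95B8 with 437 CPM had no Havcr2 count and the highest Lag3 of its group. In KC pancreas and KC blood 11 of these 12 markers were detected, Flt3 being at 0 in both. Their part in the Havcr2 and Lag3 counts was not tested.

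Cd160, a receptor held in the membrane by a lipid anchor, spread over more than 2 orders of magnitude in each tissue. It ran from 0.316 to 148 CPM in KC pancreas (median 5.27) and from 0.203 to 39.3 CPM in KC blood (median 13.5). The pancreas libraries Sample_205P8 (148 CPM) and Sample_133P8 (113 CPM) were highest, and 3 blood libraries (Sample_43B8, Sample_131B8 and Sample_205B8) lay below 0.5 CPM. The groups overlapped, and the fitted log2 difference was 1.17 ± 1.29 (SE, edgeR adjusted p = 0.838), with -0.028 without Sample_133P8. The lowest values of Cd160 were 0.180% of the highest library in 1 set and 0.276% in the other, near the level of the shared traces.

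Btla and Cd5 were read well in all libraries, and their medians differed little between tissues. Btla ran from 2.95 to 157 CPM in KC pancreas (median 48.0) and from 7.18 to 210 CPM in KC blood (median 58.0). Its fitted log2 difference was 0.031 ± 0.82 (SE, 95% interval -1.63 to 1.69, edgeR adjusted p = 0.996), so differences in either direction of up to those bounds are within the error. Cd5, which sets the threshold of T cell receptor signalling, ran from 23.0 to 291 CPM in KC pancreas (median 90.6) and from 10.2 to 143 CPM in KC blood (median 76.7). Its fitted log2 difference was 0.85 ± 0.64 (SE, 95% interval -0.44 to 2.14, edgeR adjusted p = 0.722), and it was higher in pancreas in 5 of the 9 numbered pairs and in blood in 4.

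**Figure D3:**
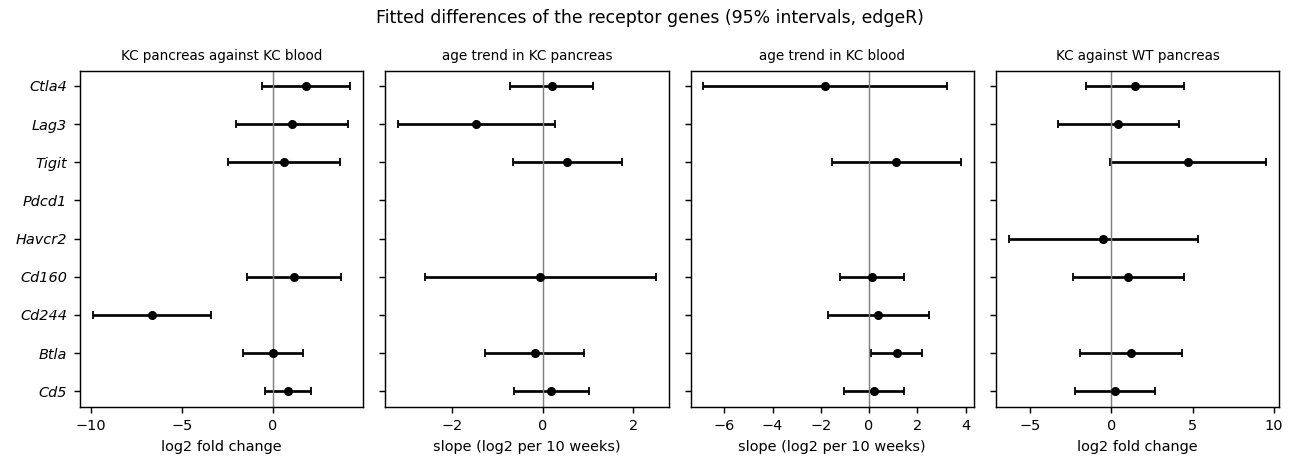
Fitted log2 fold changes or slopes of each receptor gene with 95% intervals (edgeR), for KC pancreas against KC blood, the age trends of KC pancreas and KC blood, and KC against WT pancreas. Genes without a point had too few counts or no usable estimate. Cd244 between tissues (-6.65, interval -9.91 to -3.40) and Btla in KC blood (1.14 per 10 weeks, interval 0.069 to 2.21) have intervals that leave out 0, and no gene has an adjusted p under 0.05.

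With age, no receptor was called in KC pancreas. Of the 6 receptors tested, 0 were called by edgeR, 0 had an unadjusted p under 0.05, and 0 were called by DESeq2 or limma, beside 28 of 9555 genes (0.293%) over all. Slopes per 10 weeks were above 0 for 3 of the 6 and below 0 for 3, beside 47.5% above 0 over all genes tested. By the median of each age Ctla4 was highest at 4 and 30 weeks, although 1 library of 4 weeks lay below single libraries of 13 and 20 weeks. Its levels were 40.2, 254.8 and 108 CPM at 4 weeks, 4.47 and 12.9 CPM at 9 weeks, 11.4, 59.4 and 7.93 CPM at 13 weeks, 64.0 and 18.5 CPM at 20 weeks and 154 and 164 CPM at 30 weeks. A straight line does not describe this order, and its slope was 0.20 ± 0.44 (SE, log2 per 10 weeks, edgeR adjusted p = 0.979). Age and the sets of shared traces are tied in KC pancreas, where the libraries of 4 and 13 weeks are of 1 set and those of 9, 20 and 30 weeks of the other, and with the set as a term the slope of Ctla4 was 1.45 ± 0.86 (SE, adjusted p = 0.822). Tigit was 64.2 CPM in 1 library of 30 weeks and 0.472 CPM in the other, with a slope of 0.55 ± 0.58 (SE, adjusted p = 0.902) that became -1.49 without Sample_302P8.

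Lag3 had a fitted slope in KC pancreas of -1.46 ± 0.84 per 10 weeks (SE, 95% interval -3.19 to 0.27, edgeR adjusted p = 0.675). Of the 473 Lag3 counts of the group 426 lay in Sample_43P8 of 4 weeks, and without Sample_302P8 of 30 weeks the slope was -5.84 (adjusted p = 0.0769). With the set of shared traces as a term it was -0.17 ± 1.33 (SE, adjusted p = 0.995). Cd160 was at 57.3, 36.7 and 0.316 CPM at 4 weeks and at 3.30 and 0.787 CPM at 30 weeks, with the highest value, 148 CPM, at 20 weeks. Its slope was -0.049 ± 1.23 (SE, adjusted p = 0.998). The slopes of Btla (-0.18 ± 0.53, SE, adjusted p = 0.983) and Cd5 (0.19 ± 0.40, SE, adjusted p = 0.975) were within their error.

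In KC blood the clearest order by age was that of Btla, although it did not pass the test. Its level was 7.18 and 19.4 CPM at 4 weeks, 80.2 CPM at 9 weeks, 17.0, 58.0 and 57.8 CPM at 13 weeks, 146 CPM at 20 weeks and 210 and 208 CPM at 30 weeks. The slope was 1.14 ± 0.52 per 10 weeks (SE, 95% interval 0.069 to 2.21, p = 0.0379), with an edgeR adjusted p of 0.538. It ran from 0.99 to 1.28 when each library was left out in turn, with adjusted p-values of 0.326 to 0.910, was 1.06 by DESeq2 (adjusted p = 0.140), and was 0.92 (adjusted p = 1) with the set of shared traces as a term. The blood libraries of 4 weeks and Sample_131B8 of 13 weeks, with the 3 lowest Btla levels, belong to 1 set of shared traces and the other 6 KC blood libraries to the other, and the part of this in the order by age was tested only by that term. The WT blood library of 30 weeks held 38.4 CPM, below both KC blood libraries of that age, and with 1 WT library there is no test.

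Of the 6 receptors tested for a trend in KC blood, 0 were called by edgeR and 1, Btla, had an unadjusted p under 0.05. Over all 9933 genes 0 were called (0%), while 870 had an unadjusted p under 0.05, DESeq2 called 411 genes and limma called 0, none of the receptors being among the DESeq2 calls. Slopes were above 0 for 5 of the 6, beside 43.9% of all genes tested. That of Ctla4 was -1.82 ± 2.27 (SE, edgeR adjusted p = 0.851), and it was 0.026 without Sample_131B8. Tigit had a slope of 1.14 ± 1.30 (SE, adjusted p = 0.830), with 0.0909 and 0.309 CPM at 4 weeks and 4.50 and 8.07 CPM at 30 weeks, and with 0.509, 0.365 and 23.9 CPM at 13 weeks. Cd244 had a slope of 0.38 ± 1.02 (SE, adjusted p = 0.941), Cd160 one of 0.13 ± 0.65 (SE, adjusted p = 0.974) and Cd5 one of 0.20 ± 0.60 (SE, adjusted p = 0.949). Pdcd1 was at 13.8 CPM in 1 of the 30-week libraries and at 0.139 CPM in the other.

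**Figure D4:**
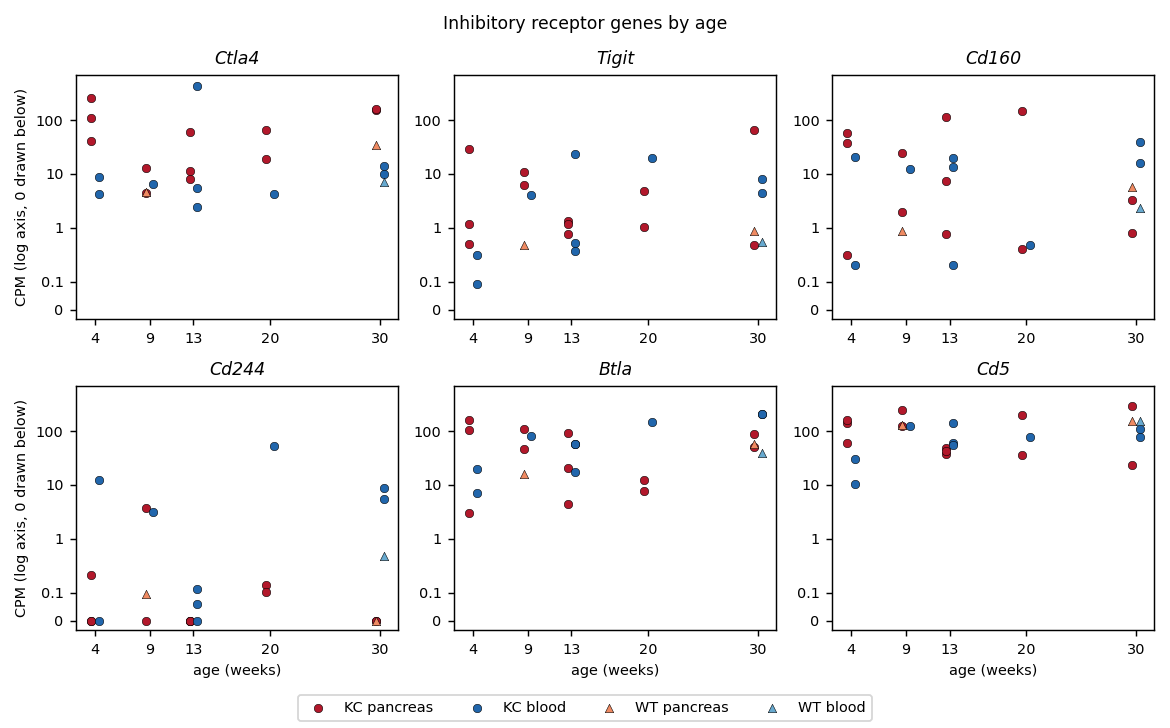
CPM of 6 receptor genes by age in weeks, on a log axis with libraries at 0 drawn at its foot. Circles are KC libraries, triangles WT libraries, and pancreas is drawn just left of blood at each age. Btla in KC blood lies at 7.18 and 19.4 CPM at 4 weeks and at 210 and 208 CPM at 30 weeks, and Ctla4 in KC pancreas has its lowest value, 4.47 CPM, at 9 weeks.

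The trend in KC pancreas minus that in KC blood was tested as an interaction, and it was called for 0 of 7 receptors by edgeR, DESeq2 or limma, with 0 at an unadjusted p under 0.05. Over all 11059 genes 6 were called (0.0543%). Btla came nearest, with a difference of -1.31 ± 0.75 log2 per 10 weeks (SE, 95% interval -2.83 to 0.21, edgeR adjusted p = 0.671). Ctla4 had a difference of 1.95 ± 1.68 (SE, adjusted p = 0.823) and Cd244 one of -1.97 ± 1.64 (SE, adjusted p = 0.815). In the same simulation the interaction test called 9.09% of genes whose slopes differed by 4.

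KC and WT pancreas were compared over the ages of 9 and 30 weeks, for which WT has 1 library each. Of the 7 receptors with a usable estimate, 0 were called by edgeR, DESeq2 or limma and 0 had an unadjusted p under 0.05, beside 28 of 12374 genes over all (0.226%). Markers of acinar cells, the enzyme-secreting cells of the pancreas, were lower in KC pancreas over these ages: 10 of 10 were called (median log2 difference -12.20), their sum ran from 0.103 to 7413 CPM over all ages of KC pancreas and was 3223 and 930 CPM in the WT pancreas libraries, and in the KC pancreas trend 6 of 10 were called lower with age. Their part in the receptor values was not tested. The KC pancreas libraries of 9 and 30 weeks and both WT pancreas libraries also belong to different sets of shared traces, so set and genotype cannot be told apart here. Tigit had the largest difference: the KC pancreas libraries held 10.8 and 6.31 CPM at 9 weeks and 64.2 and 0.472 CPM at 30 weeks, against 0.475 CPM at 9 weeks and 0.878 CPM at 30 weeks in WT pancreas. The fitted log2 difference of KC minus WT was 4.72 ± 2.46 (SE, 95% interval -0.11 to 9.54, edgeR adjusted p = 0.865), and it was 1.66 without Sample_302P8. Ctla4 was at 4.47 and 12.9 CPM at 9 weeks and 154 and 164 CPM at 30 weeks in KC pancreas, against 4.56 and 34.2 CPM in the WT pancreas libraries of those ages. Both KC values of 30 weeks were above the WT value, and the fitted difference over both ages was 1.45 ± 1.55 (SE, adjusted p = 0.972).

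The remaining receptors differed from WT by less than their errors. Fitted log2 differences were 1.19 ± 1.60 for Btla, 1.04 ± 1.74 for Cd160, 0.43 ± 1.91 for Lag3, 0.22 ± 1.25 for Cd5 and -0.48 ± 2.97 for Havcr2 (SE, n = 12 KC and 2 WT libraries in the edgeR fit). Cd244 gave no usable estimate, with 1 and 0 counts in the WT pancreas libraries, and 8 counts (0.479 CPM) in the WT blood library. Foxp3 was 54.3 CPM in the 30-week WT pancreas library, the highest of all 24, which held 0.878 CPM of Tigit and 34.2 CPM of Ctla4. In the simulation, which gave all genes 1 common spread, no gene changed by a log2 value of 4 was called in this comparison (0%). It thus had little power for genes of that spread, and power at the receptors' own spread was not simulated. In the data the comparison called smaller differences of genes with a tight spread, such as Malat1 (2.49 ± 0.25, SE, edgeR adjusted p = 4.85e-19).

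Related genes were described by lists, chosen with earlier results of these data known. Of 18 other inhibitory receptors found in the files 15 were tested between KC pancreas and KC blood, 7 with a positive and 8 with a negative difference (median -0.50), and 0 were called. Cd300a, an inhibitory receptor of leukocytes, had -1.49 ± 0.81 (SE, edgeR adjusted p = 0.555), and Cd96, which shares the ligand of Tigit, had 0.80 ± 0.44 (SE, adjusted p = 0.557). Of 14 costimulatory receptors 12 had a positive difference (median 0.65), beside 45.4% of all genes tested, and 0 were called. Klrk1, the receptor NKG2D, had -1.63 ± 0.76 (SE, adjusted p = 0.474) and Cd27 had 1.19 ± 0.59 (SE, adjusted p = 0.504). Among 9 ligands and partners tested (6 positive) and 18 genes of inhibitory signalling (9 positive), 0 were called.

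The list of transcription factors tied to exhaustion was the only one of these with a call between the tissues. Of 18 tested 14 were positive (median 1.19), beside 45.4% of all genes tested, and 1 rose, beside 0.0904% of all genes called, Nr4a1, an orphan nuclear receptor that antigen receptor signals induce, by 5.11 ± 1.03 (SE, edgeR adjusted p = 0.0135). The other 7 genes called higher were Dmbt1, a secreted mucosal protein gene, and Fos, Fosb, Egr1, Dusp1, Rgs2 and Tnfaip3, which are known to be induced rapidly by stimulation and stand outside this list, and they are named after their values were seen. Handling before the sort may differ between pancreas and blood, so tissue and handling cannot be told apart here. What raised Nr4a1 and these genes was not tested. Nr4a3, of the same family as Nr4a1, had 3.52 ± 0.80 (SE, adjusted p = 0.0550). In both age trends, in their difference and in KC against WT pancreas, 0 genes of the lists of other inhibitory receptors, costimulatory receptors, ligands, inhibitory signalling and these factors were called by edgeR. Nearest by p in KC blood was Prdm1, the gene of the repressor Blimp-1, with a slope of 2.14 ± 0.64 per 10 weeks (SE, p = 0.00237, adjusted p = 0.350). Cd200r1, an inhibitory receptor, had a slope of 2.27 ± 0.86 (SE, adjusted p = 0.484) there, and Icosl, the ligand of the costimulatory receptor ICOS, a difference of trends of -4.79 ± 1.27 (SE, adjusted p = 0.150). In KC against WT pancreas Klrc1, which encodes the inhibitory receptor NKG2A, had 5.45 ± 2.03 (SE, adjusted p = 0.757).

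The receptors did not vary as 1 block across libraries. As a description over 24 libraries that share sources of traces and differ in depth, Spearman's rho between pairs of receptors ran from -0.56 (Ctla4 and Cd244) to 0.55 (Ctla4 and Pdcd1). Ranked among 13473 other genes by rho, the genes most like Ctla4 were Cul4b (0.77), Rgs1 (0.75) and Hsp90aa1 (0.73), those most like Btla were 2810001G20Rik (0.74), Slc38a9 (0.71) and Ash1l (0.70), and those most like Cd5 were Spata2 (0.73), Kif1c (0.73) and Zmiz2 (0.70). For Cd160 they were Fastkd2 (0.69), Stradb (0.65) and Rapgef2 (0.65), and for Tigit A930013F10Rik (0.71), Nos1 (0.70) and Gm11201 (0.70). For the receptors with many low counts they were Zfp235 (0.80), Chchd7 (0.78) and Dpcd (0.76) for Lag3, and Tm4sf20 (0.80), Klhl20 (0.77) and Slc15a1 (0.76) for Cd244. Sdc4 (0.66), Ptpn22 (0.63) and Myo5a (0.63) stood nearest Pdcd1, and Tbrg1 (0.73), Capn5 (0.72) and Qrfp (0.71) nearest Havcr2.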

How the data were processed

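RNA of sorted CD8 T cells was sequenced in 24 libraries, and the deposited files hold the authors' read counts per gene symbol, not normalised, for 24421 genes, plus 5 tallies of reads left without a gene. Per the submitters' processing notes, TopHat, SAMtools, HTSeq and DESeq were used on mm10. Versions, annotation and strand use are not given in the sources used here. Of the tallied reads 11.7% to 32.5% were assigned to genes, and the tallies were left out of library sizes and tests. Reads of overlapping genes may be split or lost in such counting.

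The members and lists were chosen with earlier results of these data known. Groups and ages came from the labels, which also give 9 weeks, an age that the design text does not list. Counts were divided by gene counts for CPM, with exact (Clopper-Pearson) 95% intervals, and by kilobases of exon (GENCODE M21, within RefSeq spans) for RPKM. Tests used edgeR 4.0.16 in R 4.3.3 on genes that passed filterByExpr (minimum count 10), scaled by TMM, as two-sided quasi-likelihood tests with robust dispersions, with Benjamini-Hochberg adjustment over all genes of a comparison and a threshold of 0.05. The SE is the fitted difference over the square root of F, not a spread between libraries. Pancreas against blood used age as a factor, trends used age as a number (log2 per 10 weeks), and KC was set against WT as the mean of 9 and 30 weeks. The fits were tested on simulated counts with 200 changed genes per comparison.

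Alternatives were DESeq2 1.42.0, RLE scaling, no filter, Rn45s and Lars2 left out, other terms for age, the set of shared traces as a term, a replicate block, leaving out each library, and, chosen after seeing the data, limma 3.58.1 on log2 CPM (prior count 1). Traces were taken from genes that reached 100 CPM in 1 library with no other library above 5% of it, from sources with at least 3 such genes. All 9 members are named, with up to 2 genes of the smallest p per pathway list and the 3 genes most like each member. Genes of the report outside this rule are mainly markers of cells. Malat1 and the genes other than Nr4a1 called higher in KC pancreas than in KC blood are also outside it. They were named after their values were seen.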

Additional observations from a re-analysis of the deposited data

Results flagged for a closer look

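Single KC blood libraries stood far from the other 8 for 4 of the 9 receptors, by the gap to the next library as a share of the whole range, for which chance flags about 5% of groups where values are normally spread, which skewed CPM with many zeros are not. That a single library dominates Ctla4, and that Pdcd1 is near the limit, was known when the genes were chosen, so these values are a description. Ctla4 was 432 CPM in Sample_131B8, and the next highest library had 13.8 CPM. Pdcd1 was 13.8 CPM in Sample_302B8, with 0.538 CPM in the next. Lag3 was 6.18 CPM in Sample_95B8, with 0.853 CPM in the next. Cd244 was 52.5 CPM in Sample_205B8, with 12.2 CPM in the next. The 4 values came from 4 different libraries of 9, 13, 20 and 30 weeks. The critical values used end at 10 libraries, so the 12 KC pancreas libraries were not judged in this way. There Lag3 was 44.9 CPM in Sample_43P8, with 2.36 CPM in the next.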

How the results depend on the processing

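No receptor gene changed its call under the alternatives other than Cd244 between the tissues, which was called with no filter, by DESeq2 and without Sample_95P8. Of 736 values of receptor genes under an alternative, 661 kept their direction and their side of the threshold, 3 became called and 72 turned their sign, none of them called. The 10 values to which DESeq2 gave no adjusted p were judged by direction alone.

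Counts of genes called moved more. Between KC pancreas and KC blood 10 genes were called, and 34 with no filter, 489 by DESeq2 and 65 with no age term, and 6 to 21 when 1 library was left out (6 without Sample_302P8, 21 without Sample_131B8). The trend in KC pancreas had 28 calls, and 686 with no filter, 745 by DESeq2, 4 by limma, 0 with the set of shared traces as a term and 0 when 20 and 30 weeks were set against 4 and 9 weeks. It had 10 to 31 calls with 1 library left out (10 without Sample_42P8, 16 without Sample_204P8, 17 without Sample_41P8, 18 without Sample_205P8). The trend in KC blood had 0 calls, and 102 with no filter, 411 by DESeq2 and 8 for later against earlier ages, and 0 to 12 with 1 library left out (12 without Sample_302B8 or Sample_303B8, 3 without Sample_42B8). The difference of trends had 6 calls, and 0 with RLE scaling, 339 by DESeq2, 0 by limma, 1 with the set term and 0 with the replicate block, and 0 to 13 with 1 library left out, with 13 without Sample_302P8. KC against WT pancreas had 28 calls, and 180 by DESeq2 and 17 by limma, and 4 to 29 with 1 library left out (4 without Sample_W1P8, 8 without Sample_95P8, 11 without Sample_W3P8). The cause was not tested in any of these.

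Signs turned between tissues for Ctla4 (-0.33 with no age term) and for Btla (-0.17 with no age term, -0.12 with the set term, -0.71 with the replicate block, -0.48 by limma). For the trend in KC pancreas they turned for Cd160 (0.73 with the set term, 1.12 for later against earlier ages), Btla (0.070 with the set term, 0.040 by limma) and Cd5 (-0.10 with the set term, -0.16 by limma). For the trend in KC blood they turned for Cd160 (-0.047 with RLE scaling, -0.041 by DESeq2, -0.056 for later against earlier ages) and Ctla4 (1.22 with the set term). For the difference of trends they turned for Cd160 (0.11) and Cd5 (-0.020) with the set term, Lag3 (0.37) and Cd5 (-0.40) with the replicate block, and Lag3 (0.21) and Cd5 (-0.49) by limma. KC against WT pancreas by limma gave -0.9998 for Lag3 and -0.27 for Cd5.

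With 1 library left out, ranges that cross 0 were, between tissues, -0.70 to 0.68 for Btla, -0.028 to 2.07 for Cd160, -0.80 to 2.05 for Tigit and -0.52 to 2.03 for Lag3. In the KC pancreas trend they were -1.59 to 0.57 for Cd160, -1.49 to 1.46 for Tigit, -0.39 to 0.42 for Cd5 and -0.50 to 0.0044 for Btla. In the KC blood trend they were -2.32 to 0.026 for Ctla4, -0.18 to 3.07 for Cd244, -0.34 to 0.92 for Cd160 and -0.048 to 0.45 for Cd5. For the difference of trends they were -0.57 to 0.25 for Cd5, -1.65 to 0.50 for Cd160, -4.89 to 1.85 for Lag3 and -2.64 to 0.33 for Tigit. For KC against WT they were -2.85 to 2.37 for Lag3, -1.20 to 0.66 for Cd5 and -1.25 to 3.33 for Cd160.

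Whether the number in the titles pairs the libraries was not settled. Over 7 pairs, the correlations of what departs from the mean of the group at that age ran from -0.0487 to 0.00701. Of the 7 pairs 2, both of 30 weeks, correlated best with their own number. With 2 libraries of that age in each tissue, their departures are exact opposites, so the 2 pairs give 1 value, 0.00701. Correlations so near 0 do not tell whether a shared number marks shared mice. With the replicate block over 18 libraries, 14 genes were called between tissues, Cd244 had a log2 difference of -5.55 (adjusted p = 0.609) and Ctla4 one of 3.10 (adjusted p = 0.249). Pdcd1 and Havcr2 had so few counts that in most libraries 1 to 3 counts decide whether the library is read as positive. The part of depth in this was not tested.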
